A study of Mus musculus with 20 samples.

Results

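The testis of mice on day 10 after birth was compared with that of mice on day 8, the interval in which the first germ cells of the mouse testis enter meiosis. The comparison used the 2 arrays titled as day 10 and the 2 titled as day 8, which are 4 of the 20 arrays of a time course with 2 arrays on each of 10 days from birth to day 35. Total RNA of whole testis had been extracted with Trizol, labelled with biotin through a 3' amplification kit and hybridised to single-channel oligonucleotide arrays. Age was the only difference between the groups that the labels give. The strain was not given in the sources used here, and the labels do not say whether the 2 arrays of a day hold RNA of different animals. The p-values rest on the spread between the arrays of a day, pooled over all 20 arrays, and this spread may be technical. Because whole testis was measured, fewer cells of a type and less RNA per cell cannot be told apart.

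In the first wave of spermatogenesis, spermatogonia divide by mitosis, differentiate under retinoic acid and become preleptotene spermatocytes, which replicate their DNA a last time before meiosis. In leptotene, cohesins and axis proteins organise each chromosome into loops on a protein core, SPO11 cuts the DNA, and the meiotic recombinase DMC1 searches for the homologous chromosome while telomeres attach to the nuclear envelope. Around these germ cells, Sertoli cells stop dividing and mature, and the fetal Leydig cells of the interstitium give way to the adult type.

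Values below are probe set intensities on a linear scale, given as the first and second array of a day. Differences are day 10 minus day 8 on the scale log2(intensity + 7.83), with their standard error (SE) and a p from limma adjusted by Benjamini-Hochberg over all 16429 genes tested. The SE draws on the spread within all 10 days, so it can be large where the 4 arrays compared lie close together. The median SD of the 2 arrays of a day was 0.111 on day 8, 0.106 on day 10 and up to 0.182 on day 30. A gene was called higher or lower at an adjusted p under 0.05 and a difference of at least 1.5-fold on that scale. The 4 arrays had median intensities of 29.49 to 31.31. Across genes, the log2 values of the 2 arrays of a day correlated at 0.9845 on day 8 and 0.9824 on day 10, and those of different days at 0.975 to 0.9781. The markers of the tissue were present on all 4 arrays. For example, the germ cell gene Ddx4 lay between 833 and 941, the Sertoli cell gene Wt1 between 744 and 950.2, the Leydig cell gene Cyp17a1 between 699 and 847, and the myoid cell gene Acta2 between 4477 and 5118.

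On day 10, 254 genes were higher, or 1.55% of those tested, and 172 were lower, or 1.05%. Of all 16429 differences, 8376 were positive. These figures are the background for the counts of each gene list below. With a 2-fold threshold these counts were 105 and 60. The median difference over all genes tested was 0.0069. Of the 254 genes that rose, 54 had their highest day mean on day 10 itself and 194 on a later day. Of all 16429 genes tested, 1518 had theirs on day 10 and 9450 on a later day. Of the 172 that fell, 132 had theirs on days 0 to 6. Over all genes tested, 12.5%, 9.98% and 4.86% had theirs on days 0, 3 and 6. The call itself keeps the highest mean off day 8 for genes that rose and off day 10 for genes that fell. Leaving out single arrays reduced the counts of genes called, by over 1.5 times for every count of lower genes but by less for most counts of higher genes. Without the first or second array of day 10, 151 and 172 genes were higher and 74 and 96 lower. Without the first or second array of day 8, 176 and 204 were higher and 102 and 57 lower. In these fits the remaining array of the day is assumed to vary like the arrays of the other days.

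The largest rises were in genes of both germ cells and Sertoli cells. Tpbgl, whose protein resembles the trophoblast glycoprotein TPBG, had intensities of 26.9 and 34.4 on day 8 and 259 and 282 on day 10, a difference of 2.86 ± 0.20 (SE, n = 2 arrays a day; adjusted p = 4.75e-08). The X-linked gene Tsx, transcribed in Sertoli cells, went from 26.0 and 27.3 to 199.9 and 190.1 (2.56 ± 0.13, adjusted p = 7.11e-10). Rhox5, an X-linked homeobox gene of Sertoli cells, went from 148 and 147 to 736 and 673 (2.20 ± 0.13, adjusted p = 2.73e-09). The choice of the largest rises required both arrays of day 10 to lie above both arrays of day 8. In each of these 3 genes the difference between days also exceeded the gap between the arrays of a day many times over. Rhox5 was highest on day 10 of all 10 days, whereas Tsx went on to a mean of 914 on day 18.

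Among the other genes with the largest rises, Drd4, a dopamine receptor gene, went from 99.3 and 110.1 to 563 and 486 (2.24 ± 0.31), with its day mean highest on day 10. Spdya, an activator of CDK2 at meiotic telomeres, went from 37.8 and 26.8 to 188 and 159 (2.19 ± 0.16). A dimmer probe set of Spdya differed by 0.55 and did not pass (adjusted p = 0.373). Nudt17 was near the constant added before taking logs on day 8, at 5.95 and 5.30, and read 51.6 and 55.0 on day 10 (2.18 ± 0.35), but its mean on day 14 was again 12.02. This was a peak on a single day of the course. Nxf3, an X-linked relative of the mRNA export factors, rose by 2.05 ± 0.17, Terb1, a telomere protein gene, by 2.04 ± 0.16, Ccnb3, the X-linked cyclin B3 gene active in early meiosis, by 1.99 ± 0.34, and Ly6k, a germ cell surface protein gene, by 1.95 ± 0.15. The calls of 2 further genes in this set were lost without at least 1 array, in fits with 1 array left on that day. P2rx2, an ATP-gated channel gene (1.98 ± 0.42), had an adjusted p of 0.158 without the first array of day 8 and 0.141 without the first of day 10. B4galnt1, which encodes a ganglioside-synthesising enzyme (1.96 ± 0.36), had one of 0.0722 without the first array of day 8.

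**Figure D1:**
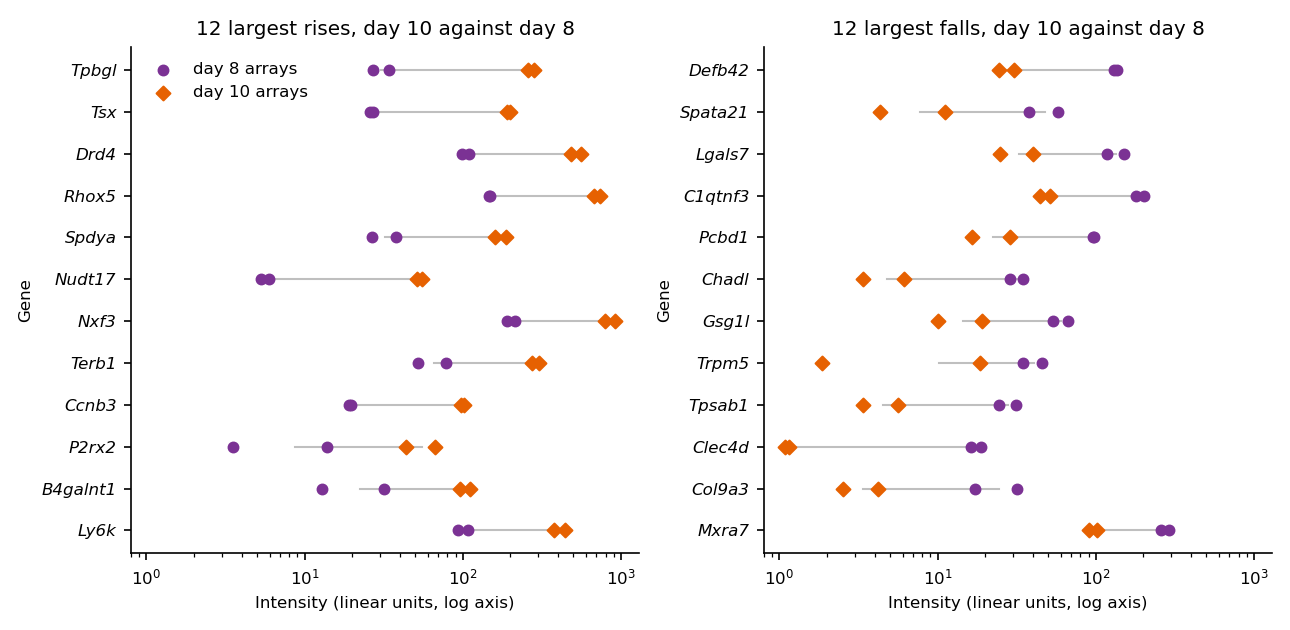
Intensity on a log axis of the 12 largest rises (left) and the 12 largest falls (right), with 1 point for each array of day 8 and day 10 and a line between the day means. In every gene shown the 2 arrays of day 10 lie on the same side of the 2 arrays of day 8, as the choice of the genes requires; Tpbgl moves from 26.9 and 34.4 to 259 and 282, and several of the falls end below 10.

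Among the largest falls, Defb42, a beta-defensin gene, went from 131 and 135 on day 8 to 30.5 and 24.6 on day 10 (-2.00 ± 0.34, adjusted p = 0.00136). C1qtnf3, a secreted C1q-domain protein gene, went from 179.6 and 200.4 to 44.1 and 51.7 (-1.83 ± 0.26, adjusted p = 0.000219). Mxra7, a matrix remodelling associated gene, went from 259.7 and 291 to 91.2 and 102 (-1.44 ± 0.19, adjusted p = 0.000121). The largest falls were chosen among genes whose 2 days did not overlap. The calls of Defb42, C1qtnf3 and Mxra7 held without each of the 4 arrays. Spata21 (-1.85 ± 0.29) also kept its call without each array. It fell from 37.8 and 57.5 to 11.1 and 4.31, although its highest day mean, 1973, came on day 35. The 8 other largest falls stayed negative but lost their call without at least 1 array. Such a fit leaves 1 array on that day, which by itself makes a call harder to reach. Clec4d, for example, stayed between -1.42 and -1.57 whichever array was left out. Lgals7, which encodes galectin-7 (-1.83 ± 0.33), and Pcbd1 (-1.82 ± 0.35) had adjusted p-values of 0.0642 and 0.0928 without the first array of day 10. For Gsg1l (-1.62) they were 0.0737 without the second array of day 8 and 0.107 without the first of day 10, and for Trpm5 (-1.58) 0.119 and 0.224 without the same arrays. The mean over the probe sets of Trpm5 differed by -0.86 (adjusted p = 0.157). Col9a3 (-1.49) lost its call without the second array of day 8 (0.25), the first of day 10 (0.0999) and the second of day 10 (0.144). The mean over its probe sets differed by only -0.57 (adjusted p = 0.477), and its other probe set by 0.17, in the opposite direction. Chadl (-1.65), the mast cell tryptase gene Tpsab1 (-1.54) and Clec4d (-1.50) lost theirs whichever of the 4 arrays was left out, with adjusted p-values up to 0.152, 0.161 and 0.126.

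Of 16 tested genes listed under meiotic entry, not all of them regulators, 3 rose and none fell, and the median difference was 0.15. Stra8, the retinoic acid target gene that licenses meiotic entry, went from 723 and 688 to 1159 and 1098 (0.67 ± 0.11, adjusted p = 0.00102). Both arrays of day 10 exceeded both of day 8, and the day mean of 1129 was the highest of the course, between 456 on day 6 and 629 on day 14. Meioc, which encodes a protein that sustains the meiotic programme by acting on cell cycle mRNAs, went from 116 and 125 to 415 and 458 (1.79 ± 0.13, adjusted p = 5.61e-08). Unlike Stra8, it had a still higher mean of 839 on day 14. Tex101, a germ cell surface glycoprotein gene, went from 369 and 369.8 to 1326 and 1136 (1.71 ± 0.11, adjusted p = 5.86e-09). The calls of all 3 held without each of the 4 arrays.

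The other genes listed under meiotic entry did not pass the threshold. Ythdc2, which encodes the RNA helicase partner of MEIOC, differed by 0.62 ± 0.20 with an adjusted p of 0.086, and Boll, a germ cell RNA-binding protein gene, by 0.68 ± 0.19 with 0.0544. Dazl, which encodes the RNA-binding protein that makes germ cells competent for meiosis, was at 3281 and 2988 on day 8 and at 3656 and 3724 on day 10 (0.24 ± 0.12, adjusted p = 0.38). Dmrt1, a regulator that restrains Stra8 in spermatogonia, differed by 0.04 ± 0.11, E2f6 and Mga, which encode parts of a complex that silences meiotic genes in other cells, by -0.46 and -0.23, and Cyp26b1, a retinoic acid degrading enzyme gene, by -0.03 ± 0.16. Bhmg1, the gene of the STRA8 partner MEIOSIN, and Nanos2 were not tested.

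Of 22 tested genes of the retinoic acid pathway, 1 rose and the median difference was 0.025. It was Aldh1a2, which encodes an enzyme that makes retinoic acid, at 184 and 195 on day 8 and 407 and 345 on day 10 (0.95 ± 0.15, adjusted p = 0.000438). Its 2 days did not overlap, and its highest day mean, 1078, came on day 30. The degrading enzyme gene Cyp26a1 differed by 0.92 ± 0.31 (adjusted p = 0.112) and the receptor genes Rarg and Rarb by 0.62 and 0.82 (0.344 and 0.395), all short of the threshold. The Sertoli cell enzyme gene Aldh1a1 differed by -0.00.

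Of 18 tested genes of the meiotic cohesins, the chromosome axis and the synaptonemal complex, 10 rose and none fell, and 16 differences were positive with a median of 0.73. Among all genes tested, 1.55% rose and 8376 differences were positive. The summed intensity of these genes went from 9767 and 9812 on day 8 to 14211 and 13994 on day 10. Among the cohesins, Smc1b, the meiotic SMC1 subunit gene, went from 316 and 343 to 743 and 666 (1.08 ± 0.11), and Stag3, the meiotic STAG subunit gene, from 406 and 405 to 689 and 663 (0.73 ± 0.09). Rec8, the gene of the meiotic kleisin subunit, was at 49.6 and 61.9 on day 8 and at 93.0 and 92.9 on day 10. Its arrays did not overlap either, but the difference of 0.67 ± 0.31 did not pass the test (adjusted p = 0.292).

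The axis proteins and the central region of the complex moved in the same direction. Sycp3, an axis core gene, went from 678 and 685 to 1522 and 1497 (1.14 ± 0.10, adjusted p = 3.27e-07). Its partner Sycp2 went from 225 and 237 to 743 and 696 (1.61 ± 0.09, adjusted p = 2.73e-09). Sycp1, the gene of the transverse filament, went from 440.2 and 333 to 1081 and 944 (1.38 ± 0.13, adjusted p = 1.87e-06). In each of the 3, the lower array of day 10 was more than 2-fold above the higher array of day 8. Hormad1, an axis protein gene needed for DNA breaks, went from 67.5 and 95.8 to 252 and 308 (1.70 ± 0.33, adjusted p = 0.00421), but its adjusted p was 0.0751 without the first array of day 8 and 0.0627 without the second of day 10. Of the central element genes, Syce1 rose by 0.67 ± 0.10, Syce3 by 0.89 ± 0.12, Tex12 by 0.74 ± 0.09 and the gene of SIX6OS1, 4930447C04Rik, went from 148 and 155 to 307 and 315. Syce2 passed the p threshold but not 1.5-fold (0.36, adjusted p = 0.00681). The members that did not pass were Rec8, Hormad2 (0.98 ± 0.45, adjusted p = 0.3), Ankrd31 (0.38), Tex30 (0.18) and Smc3, Skp1 and Trip13, which lay between -0.04 and 0.08. Most genes in this group had not reached their highest mean: Sycp1, Smc1b, Tex12 and 4930447C04Rik were highest on day 14, and Sycp3 and Hormad1 on day 18.

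The promoters of 6 of the genes that rose are shown, from meiotic entry (Stra8, Meioc), the axis and the synaptonemal complex (Sycp1, Sycp3, Hormad1) and recombination (Dmc1). They were chosen with the letter counts below known, so the runs they share are only a description. Each window runs from 250 bases before to 50 after the transcription start in RefSeq (GRCm38.p6) and is written 5′ to 3′ on the strand of the gene. They lie at chr6:34920698-34920997 (+) for Stra8, chr11:102665335-102665634 (+) for Meioc, chr3:102936051-102936350 (-) for Sycp1, chr10:88459337-88459636 (+) for Sycp3, chr3:95559427-95559726 (+) for Hormad1 and chr15:79605060-79605359 (-) for Dmc1. Capitals mark 4 of 10 letter runs searched on either strand, which do not overlap here: TTTGGCGC and TTTCCCGC (E2F), CACGTG (E-box) and AGGTCA (the core of retinoic acid receptor sites).
Stra8: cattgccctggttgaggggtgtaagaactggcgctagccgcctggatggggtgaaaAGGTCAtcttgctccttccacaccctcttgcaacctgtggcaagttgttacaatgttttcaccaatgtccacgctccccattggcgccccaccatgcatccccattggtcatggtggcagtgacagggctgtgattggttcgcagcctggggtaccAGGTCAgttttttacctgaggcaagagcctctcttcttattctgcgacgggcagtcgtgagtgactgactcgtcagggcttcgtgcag
Meioc: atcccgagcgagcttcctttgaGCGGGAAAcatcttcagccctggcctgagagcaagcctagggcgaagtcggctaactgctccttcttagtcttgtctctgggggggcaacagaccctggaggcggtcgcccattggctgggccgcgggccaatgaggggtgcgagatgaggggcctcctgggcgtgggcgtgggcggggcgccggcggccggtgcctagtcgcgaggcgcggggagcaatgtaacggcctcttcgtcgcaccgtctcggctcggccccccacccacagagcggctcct
Sycp1: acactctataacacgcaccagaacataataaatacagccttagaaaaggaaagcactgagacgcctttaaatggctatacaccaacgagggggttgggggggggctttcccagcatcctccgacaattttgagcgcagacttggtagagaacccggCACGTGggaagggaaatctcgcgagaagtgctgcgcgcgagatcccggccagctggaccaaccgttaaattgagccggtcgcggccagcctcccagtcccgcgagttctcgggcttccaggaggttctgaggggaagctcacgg
Sycp3: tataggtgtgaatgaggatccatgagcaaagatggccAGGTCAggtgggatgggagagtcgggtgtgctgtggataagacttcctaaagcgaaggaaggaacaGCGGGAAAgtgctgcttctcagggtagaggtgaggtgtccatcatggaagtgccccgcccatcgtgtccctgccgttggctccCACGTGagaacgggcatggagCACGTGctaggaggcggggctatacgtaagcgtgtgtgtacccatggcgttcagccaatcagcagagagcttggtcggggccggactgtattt
Hormad1: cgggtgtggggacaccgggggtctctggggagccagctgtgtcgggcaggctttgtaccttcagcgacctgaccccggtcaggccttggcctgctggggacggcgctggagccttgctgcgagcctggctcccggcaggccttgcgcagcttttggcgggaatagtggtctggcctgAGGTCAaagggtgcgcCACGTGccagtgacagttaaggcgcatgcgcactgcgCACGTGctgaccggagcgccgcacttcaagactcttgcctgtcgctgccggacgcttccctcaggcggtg
Dmc1: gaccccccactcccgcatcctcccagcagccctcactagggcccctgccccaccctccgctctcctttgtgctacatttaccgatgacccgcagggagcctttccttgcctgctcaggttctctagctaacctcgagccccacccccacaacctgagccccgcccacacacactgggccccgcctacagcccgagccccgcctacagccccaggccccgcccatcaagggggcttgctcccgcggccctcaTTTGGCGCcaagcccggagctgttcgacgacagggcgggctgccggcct

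The Stra8 window holds AGGTCA at positions 57 and 213, counted from 1 at its 5′ end, and the Meioc window TTTCCCGC at 23 on the reverse strand. CACGTG stands at 157 in Sycp1, at 187 and 208 in Sycp3 and at 194 and 231 in Hormad1, and Stag3, Tex12 and 4930447C04Rik hold it too. These 6 genes are all among the 10 that rose. Of the 18 genes of this group CACGTG is found in 33.3%, against 9.41% of the 13123 tested genes with a window of this length. Over all genes that rose, 8.7% of 207 windows hold it, and over all that fell, 8.06% of 124. AGGTCA is found in 11.1% of the group and 13.4% of all windows, and TTTCCCGC in 11.1% and 1.84%. TTTGGCGC is in none of the 18 windows and in 0.922% of all, and stands at 252 in Dmc1, which holds no CACGTG. In the windows of 23 recombination genes, described next, CACGTG is found in 2 (8.7%), near its share of all windows. The other 6 runs searched were TGACGTCA (5.56% of the group and 2.76% of all windows), AACGG (27.8% and 22.1%), AACTG (9 of 18 windows and 39.7%), GGTTCA (0.0% and 8.98%), GGGCGG (55.6% and 57.0%) and CCAAT (22.2% and 38.3%). These letter counts are a description and show no binding.

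Of 27 tested recombination genes, 10 rose and none fell, against 1.55% and 1.05% of all genes. Of their differences, 21 were positive, with a median of 0.31. The break-forming gene Spo11 went from 21.1 and 26.8 to 92.6 and 85.6 (1.61 ± 0.20, adjusted p = 5.5e-05). The meiotic recombinase gene Dmc1 went from 111 and 108 to 309.5 and 309 (1.44 ± 0.19, adjusted p = 7.73e-05). Meiob, which encodes a binder of single-stranded DNA, went from 10.7 and 12.7 to 71.1 and 53.5 (1.84 ± 0.27, adjusted p = 0.000278). All 4 arrays were clear of overlap in these 3 genes and the calls held without each array. Their later courses differed: Dmc1 stood at 341 on day 14, whereas Meiob reached 623 and Spo11 320.4 on that day and 968 on day 20.

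Among the genes that act at or after the breaks, the checkpoint kinase gene Atr went from 599 and 603 to 1078 and 1065 (0.83 ± 0.09) and Tex15 from 1128 and 1090.5 to 1836 and 1782 (0.70 ± 0.08). Hsf2bp, whose protein binds BRCA2, rose by 0.90 ± 0.16 and Brca2 by 0.69 ± 0.13. Brca2 had an adjusted p of 0.0656 without the first array of day 10, and the mean over the probe sets of Hsf2bp differed by only 0.36 (adjusted p = 0.688). The calls of the hotspot gene Prdm9 and of the MutS homologues Msh4 and Msh5 rested on values near the floor on day 8. Those of Prdm9 and Msh4 were also lost after quantile normalization. Prdm9 was at 24.2 and 7.33 on day 8 and at 55.8 and 58.0 on day 10 (1.55 ± 0.38, adjusted p = 0.0218), with adjusted p-values of 0.326, 0.137 and 0.126 without the second array of day 8 and the first and second of day 10. Msh4 went from 18.1 and 2.97 to 32.3 and 45.0 (1.46 ± 0.39, adjusted p = 0.0384), and had 0.481, 0.12 and 0.248 without the same 3 arrays. Msh5 went from 13.1 and 22.6 to 78.0 and 69.3 (1.69 ± 0.37, adjusted p = 0.0109), and had 0.148 without the first array of day 8, 0.12 without the first of day 10 and 0.0648 without the second of day 10. Counted without the first and second arrays of day 8 and of day 10 in turn, 9, 8, 6 and 7 recombination genes rose.

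The break-machinery genes Mei1 (1.03 ± 0.32, adjusted p = 0.0816), Mei4 (0.54) and Rec114 (0.30) did not pass, nor did Tex11, an X-linked crossover gene (0.62 ± 0.18, adjusted p = 0.0669). The strand exchange cofactor genes Psmc3ip and Mnd1, at 0.07 and -0.24, and the kinase and repair genes Atm and Brca1, at -0.12 and 0.15, did not pass either.

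Of 12 tested genes of telomere attachment, 6 rose, against 1.55% of all genes, with a median difference of 0.43. The TERB1, TERB2 and MAJIN proteins join telomeres to the inner nuclear membrane. Terb1 went from 51.8 and 78.8 to 305 and 273 (2.04 ± 0.16, adjusted p = 1.76e-07), Majin from 28.8 and 34.4 to 93.2 and 74.4 (1.21 ± 0.21, adjusted p = 0.00136), and Terb2 from 31.4 and 20.3 to 51.6 and 68.6 (1.02 ± 0.24, adjusted p = 0.0169). The days were apart in all 3 genes, and with Spdya, described above, only Terb2 of these 4 lost its call without an array (0.221 without the second of day 8 and 0.186 without the second of day 10). Sun2, a nuclear envelope linker gene (0.59 ± 0.13), and the dynein light chain gene Dynlrb2 (0.74 ± 0.21) lost theirs whichever of the 4 arrays was left out, with adjusted p-values up to 0.106 and 0.407. The mean over the probe sets of Sun2 differed by only 0.29 (adjusted p = 0.725), and Dynlrb2 also missed the threshold after quantile normalization (0.0752), with a common median (0.0508) and with no trend (0.116). Sun1 (0.28, adjusted p = 0.053), Cdk2 (0.06) and Lmna (-0.45, adjusted p = 0.0795) were not called. Without the first and second arrays of day 8 and of day 10 in turn, 4, 3, 4 and 3 of these genes rose.

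**Figure D2:**
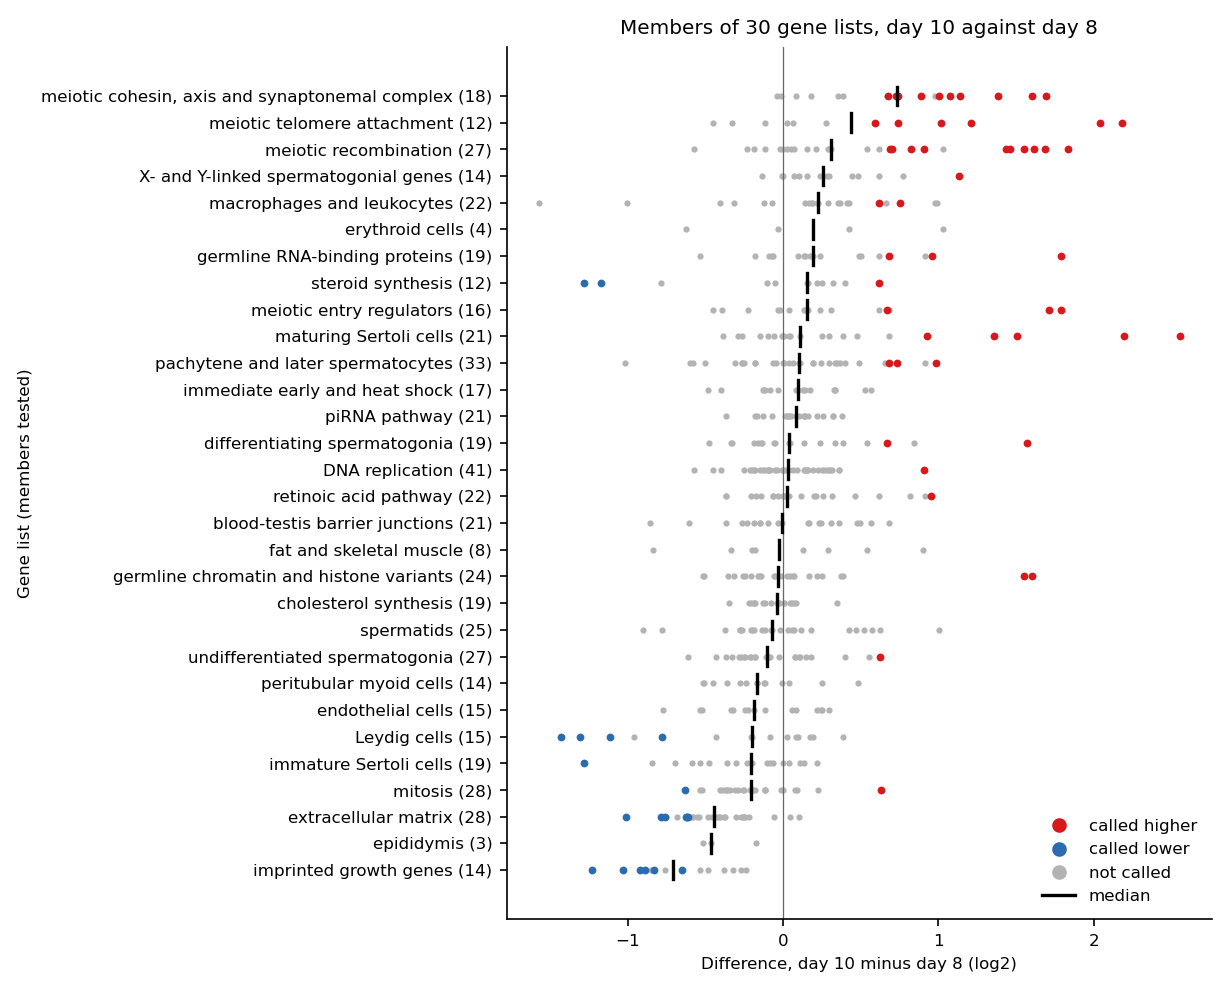
Log2 difference, day 10 minus day 8, of every tested member of each gene list, with 1 point per gene, called genes in colour and a bar at the median of the list. The cohesin, axis and synaptonemal complex list lies highest with a median of 0.73, and the imprinted growth genes lie lowest, all 14 below 0 with a median of -0.71.

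The medians of the lists of undifferentiated and differentiating spermatogonia moved little. Of 27 tested genes of undifferentiated spermatogonia, 1 rose, with a median difference of -0.11. It was the adhesion gene Epcam, from 232 and 229 to 367 and 353 (0.63 ± 0.15, adjusted p = 0.0164), and without each array in turn its adjusted p was up to 0.151. The mean over its probe sets differed by 0.44 (adjusted p = 0.643). Zbtb16, the gene of the stem and progenitor factor PLZF, stood at 414 and 398 on day 8 and at 356 and 358 on day 10 (-0.18 ± 0.18, adjusted p = 0.738), and Gfra1, the GDNF co-receptor gene, differed by 0.07 ± 0.28. Id4, a stem cell regulator, passed the p threshold at under 1.5-fold (0.56, adjusted p = 0.00643), and Lin28a did not pass (0.63, adjusted p = 0.113). Of 19 tested genes of differentiating spermatogonia, 2 rose, Stra8 and the X-linked homeobox gene Rhox13, and the median difference was 0.036. The summed intensity of the list went from 12175 and 11850 to 13354 and 13409. Rhox13 went from 273 and 309.8 to 904 and 856 (1.57 ± 0.18, adjusted p = 1.68e-05) and was highest on day 10.

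Kit, the receptor gene that marks differentiating spermatogonia, was at 248 and 259 on day 8 and at 319 and 322 on day 10. Its days did not overlap, but the difference of 0.33 ± 0.36 did not pass (adjusted p = 0.761). The differentiation factor genes Sohlh1 and Sohlh2 differed by -0.34 ± 0.33 and -0.14 ± 0.16, Dmrtb1, a regulator of the switch to meiosis, by 0.54 ± 0.21 (adjusted p = 0.18), and the germ cell helicase gene Ddx4 by 0.14 ± 0.09. The cyclin gene Ccnd2 was lower at under 1.5-fold (-0.48, adjusted p = 0.00609). Of 14 tested X- and Y-linked spermatogonial genes, 1 rose, and 11 differences were positive with a median of 0.26. The summed intensity of these genes went from 5674 and 5676 to 6905 and 7019. Tex16 was the gene that rose, from 82.8 and 75.4 to 188 and 177 (1.13 ± 0.23, adjusted p = 0.00679). It had adjusted p-values of 0.0794, 0.0936 and 0.0526 without the second array of day 8 and the first and second of day 10.

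Of 33 tested genes of pachytene and later spermatocytes, 3 rose, with a median of 0.099, and their summed level was 1825 and 1773 on day 8 and 2085 and 1989.8 on day 10. The lactate dehydrogenase gene Ldhc stood at 1.11 and 10.96 on day 8 and at 14.5 and 21.7 on day 10 (0.99 ± 0.22, adjusted p = 0.0125), against a mean of 2176 on day 14. Its call was lost without the first array of day 8 (0.249) and without the second of day 10 (0.169). Pdha2, a testis pyruvate dehydrogenase gene, differed by 0.73 ± 0.18. Its call was lost after quantile normalization and without the second array of day 8 and the first and second of day 10. The differences without these arrays were 0.40, 0.62 and 0.85. Ybx2, a germ cell mRNA-binding protein gene, differed by 0.68 ± 0.12, with 0.0587 and 0.071 without the first array of day 8 and of day 10. The pachytene markers Piwil1, at 29.8 and 25.6 on day 8 and 27.4 and 28.0 on day 10, and Hspa2 (0.24 ± 0.13, adjusted p = 0.435) did not pass the test. No gene passed among 25 spermatid genes, where the most distant from 0 was the protamine gene Prm2 (13.5 and 4.53 on day 8, 24.6 and 24.7 on day 10, adjusted p = 0.0911), or among 21 genes of the piRNA pathway, which silences transposons (Gpat2, 0.38 ± 0.13, adjusted p = 0.109).

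Genes of germline RNA-binding proteins and chromatin gave few further calls. Of 19 tested RNA-binding protein genes, 3 rose: Meioc, Ybx2 and Adad1, which went from 87.4 and 93.7 to 193 and 175 (0.96 ± 0.12, adjusted p = 7.55e-05). Of 24 chromatin genes, Prdm9 and Tet3 rose, and both calls were lost after quantile normalization. Tet3, the gene of a dioxygenase that oxidises methylcytosine, read 10.6 and 5.52 on day 8 and 35.9 and 44.0 on day 10 (a ratio of day means of 4.95, adjusted p = 0.0306), and lost its call whichever of the 4 arrays was left out, with adjusted p-values up to 0.245.

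**Figure D3:**
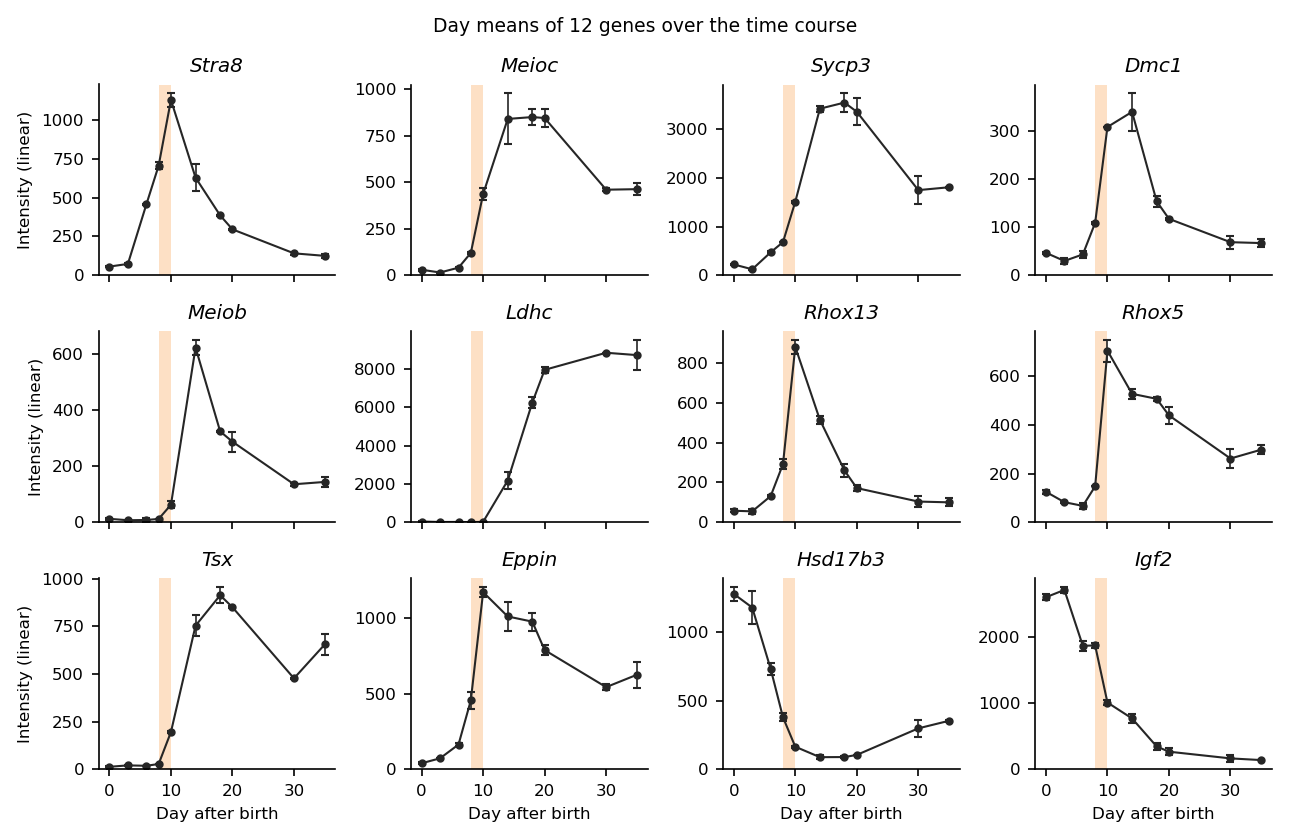
Intensity on a linear axis against day after birth for 12 genes, with points at the mean of the 2 arrays of each day, bars of 1 SD (n = 2) and a line joining the means; the interval from day 8 to day 10 is shaded. Stra8, Rhox13, Rhox5 and Eppin are highest on day 10, Sycp3, Meiob and Tsx are higher on day 14 than on day 10, and Hsd17b3 and Igf2 are lower on day 10 than on day 8.

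Genes of the mitotic cycle were weighted towards lower values and those of DNA replication were not. Of 28 tested mitosis genes, 1 rose, 1 fell and 4 differences were positive, with a median of -0.21. Over all 16429 genes, 8376 differences were positive. Ube2c, which encodes the ubiquitin-conjugating enzyme of the anaphase-promoting complex, went from 851 and 856 to 546 and 549 (-0.63 ± 0.10, adjusted p = 0.000781). Cdk1, the mitotic kinase gene, passed the p threshold at under 1.5-fold (-0.39, adjusted p = 0.003). The checkpoint kinase gene Bub1 went from 659 and 670.0 to 1013 and 1049 (0.63 ± 0.09), but the mean over its probe sets differed by -0.05 (adjusted p = 0.942). The proliferation marker Mki67 differed by -0.12 ± 0.12. Of 41 tested replication genes, 1 rose and the median was 0.028. It was Ccne2, the gene of cyclin E2, from 215 and 234 to 425 and 430.2 (0.91 ± 0.16, adjusted p = 0.00157), while Pcna, the sliding clamp gene, differed by -0.10 ± 0.08.

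Of 21 tested genes of maturing Sertoli cells, 5 rose, against 1.55% of all genes, and the median was 0.11. Besides Tsx and Rhox5, the protease inhibitor gene Eppin went from 415 and 495 to 1149 and 1196 (1.36 ± 0.13, adjusted p = 1.26e-06) and was highest on day 10. The serine protease gene Corin went from 13.2 and 22.1 to 68.3 and 59.1 (1.51 ± 0.27, adjusted p = 0.00202), and had an adjusted p of 0.0504 without the first array of day 8. The X-linked transcription factor gene Gata1 went from 172 and 171 to 348 and 321 (0.93 ± 0.18, adjusted p = 0.00481), and had 0.0806 without the first array of day 10. The arrays of the 2 days were apart in all 5 genes, yet the summed intensity of the list, 41083 and 41720 on day 8 and 42569 and 42616 on day 10, differed little. The tight junction gene Cldn11 passed the p threshold at under 1.5-fold, from 708 and 760.3 to 1001 and 1046 (0.48 ± 0.13, adjusted p = 0.0377). The FSH receptor gene Fshr differed by -0.39 ± 0.26 (adjusted p = 0.556). No gene passed among 21 blood-testis barrier genes, whose summed level was 12325 and 12645 on day 8 and 12243 and 12685 on day 10. The most distant of these from 0 was Cxadr (-0.86 ± 0.26, adjusted p = 0.077).

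Of 19 tested genes of immature Sertoli cells, 1 fell and 4 differences were positive, with a median of -0.21. The one that fell was Hsd17b1, an estradiol-forming enzyme gene, from 195 and 189.7 to 71.9 and 77.1 (-1.28 ± 0.33, adjusted p = 0.031). Its call was lost after quantile normalization and whichever of the 4 arrays was left out, with differences then of -1.24 to -1.33. Amh, the anti-Müllerian hormone gene, stood at 141 and 179.9 on day 8 and at 92.8 and 97.4 on day 10. Its days did not overlap, but the difference of -0.70 ± 0.28 did not pass (adjusted p = 0.203), and on day 3 its mean had been 761. The Sertoli cell factor gene Sox9 differed by -0.21 ± 0.16 and Wt1 by 0.22 ± 0.13.

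Of 12 tested genes of steroid synthesis, 1 rose and 2 fell, and 7 differences were positive with a median of 0.16. Hsd17b3, the testosterone-forming enzyme gene that Sertoli cells express in the fetal testis, went from 399 and 357 to 168 and 158 (-1.17 ± 0.13, adjusted p = 1.54e-05), on a course that began at 1279 on day 0. Hsd17b1 was the other. Nr0b1, the X-linked gene of the nuclear receptor DAX1, went from 394 and 380.1 to 618 and 579 (0.62 ± 0.12, adjusted p = 0.00522), and had adjusted p-values of 0.0629 and 0.0888 without the second array of day 8 and the first of day 10. The enzyme genes Cyp17a1 and Cyp11a1 and the cholesterol transporter gene Star did not pass. They differed by -0.05 ± 0.12, 0.40 ± 0.15 (adjusted p = 0.191) and 0.32 ± 0.19 (adjusted p = 0.457).

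Of 15 tested Leydig cell genes, 4 fell, against 1.05% of all genes, and 6 differences were positive. The median difference was -0.20. Without the first and second arrays of day 8 and of day 10 in turn, it was -0.05, -0.26, -0.01 and -0.25. Ptgds, a prostaglandin D synthase gene, went from 214 and 276 to 95.9 and 91.5 (-1.31 ± 0.18, adjusted p = 0.000151), with no overlap and with its call kept without each array. The angiotensin receptor gene Agtr2 went from 208 and 239 to 83.5 and 72.8 (-1.43 ± 0.33, adjusted p = 0.0159), the matrix gene Thbs2 fell by 1.11 and the hedgehog target gene Gli1 by 0.78. Without single arrays these 3 had adjusted p-values of 0.076 to 0.143, 0.0789 to 0.131 and 0.0532 to 0.393. The summed level of the list was 6824 and 7023 on day 8 and 5898 and 6239 on day 10.

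Of 28 tested extracellular matrix genes, 6 fell, against 1.05% of all genes, and 26 differences were negative with a median of -0.44. Over all 16429 genes, 8376 differences were positive. Periostin (Postn) went from 349.6 and 356 to 149.8 and 195 (-1.01 ± 0.15, adjusted p = 0.000372). Fibronectin (Fn1) went from 1122 and 1192 to 655 and 678 (-0.79 ± 0.13, adjusted p = 0.000781), though the mean over its probe sets differed by only -0.41 (adjusted p = 0.495). The collagen V gene Col5a1 went from 601 and 656 to 359.9 and 373 (-0.76 ± 0.14, adjusted p = 0.00308), and had an adjusted p of 0.0573 without the second array of day 8. The days were apart in these 3 genes. The collagen genes Col4a1 and Col6a3 and the laminin gene Lama2 fell by 0.63, 0.61 and 0.62, close to the 1.5-fold threshold, and each missed the threshold without at least 1 array. Without the second array of day 8 Col4a1 stood at -0.53 and Col6a3 at -0.53, without the first of day 10 Col6a3 stood at -0.57, and without the first of day 8 Lama2 stood at -0.55. Col1a1, a collagen I gene, differed by -0.41 ± 0.16 (adjusted p = 0.182). The positive differences were Mgp (0.10) and Sparc (0.04). The summed level was 44021 and 45781 on day 8 and 34605 and 36884 on day 10. Without the first and second arrays of day 8 and of day 10 in turn, 8, 3, 5 and 7 of these genes fell.

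No gene passed among 14 tested genes of peritubular myoid cells, with summed levels of 15058 and 16243 on day 8 and 13383 and 14505 on day 10. The contractile gene Acta2 differed by -0.12 ± 0.08, and Tagln, the gene of transgelin, was lower at under 1.5-fold (-0.52 ± 0.14, adjusted p = 0.041). Of 15 endothelial genes none passed either, and the most distant from 0 was Plvap (-0.77 ± 0.37, adjusted p = 0.328).

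Of 14 tested imprinted growth genes, 6 fell, against 1.05% of all genes, and all 14 differences were negative. Their median difference was -0.71, and their summed level went from 14169 and 15454 to 8875 and 9299. Neuronatin (Nnat), of the paternally expressed genes, went from 194 and 208 to 77.5 and 84.5 (-1.23 ± 0.21, adjusted p = 0.00122). The maternally expressed long non-coding RNA gene Meg3 went from 1535 and 1705 to 756 and 819.5 (-1.03 ± 0.14, adjusted p = 0.00018), though the mean over its probe sets differed by -0.56 (adjusted p = 0.163). The growth factor gene Igf2 went from 1851 and 1905 to 988 and 1034 (-0.89 ± 0.15, adjusted p = 0.00145). In all 3 the lower array of day 8 was well above the higher array of day 10. Cdkn1c, a cell cycle inhibitor gene, fell by 0.83, and Mest by 0.92 with adjusted p-values of 0.0647 and 0.0506 without the second array of day 8 and of day 10. Plagl1, a transcription factor gene, fell by 0.66, and by 0.53 after quantile normalization and 0.40 as the mean of its probe sets, short of the threshold in both. The growth factor adaptor gene Grb10 was lower at under 1.5-fold (-0.53, adjusted p = 0.00068), and Dlk1 differed by -0.85 ± 0.37 (adjusted p = 0.266). Leaving out single arrays gave 5 or 6 falls. The part of a change in cell type shares in these falls was not tested. On the same arrays the median difference was -0.44 for the matrix list and -0.20 for the Leydig cell list.

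Genes of blood cells and other tissue did not follow 1 pattern. Of 22 tested macrophage and leukocyte genes, 2 rose, with a median of 0.22, and their summed level was 2395 and 1883 on day 8 and 2645 and 2559.6 on day 10. The complement gene C1qa went from 109.8 and 115 to 196 and 195 (0.76 ± 0.19, adjusted p = 0.0271). Its call was lost after quantile normalization and whichever of the 4 arrays was left out, with differences then of 0.72 to 0.79. The receptor gene Csf1r rose by 0.61 ± 0.11. It missed the threshold for the mean of its probe sets and without the second array of day 8 (0.55) and of day 10 (0.50). The neutrophil genes S100a8 and S100a9 were high in the first array of each day, at 266 and 164 on day 8 and 90.5 and 45.1 on day 10, against 28.7 and 18.2 and then 17.3 and 1.69 in the second arrays. The part of leukocytes in the differences between days was not tested. No gene passed among 4 erythroid genes (Alas2, 1.03 ± 0.38, adjusted p = 0.154), 3 epididymal genes (Lcn9, -0.52 ± 0.46), 8 genes of fat and skeletal muscle (Tnnc2, 0.90 ± 0.38), 19 cholesterol synthesis genes (Mvd, -0.35 ± 0.27) and 17 immediate early and heat shock genes (Fos, 0.57 ± 0.31). The summed level of the epididymal genes was at most 30.1 on any of the 4 arrays, and that of the fat and muscle genes at most 85.4.

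The genes that rose were unevenly placed on the chromosomes, a count made after the values were seen. Of 559 tested genes on the X chromosome, 28 rose, or 5.01%, and 5 fell, or 0.894%. On the 19 autosomes the share that rose was 0.519% to 2.32%. Without the first and second arrays of day 8 and of day 10 in turn, the X chromosome had 4.29%, 4.29%, 3.4% and 4.11%, and the highest autosome 2.14%, 2.14%, 1.43% and 1.78%. The X-linked genes that rose include the Sertoli cell genes Tsx, Rhox5 and Gata1, the germ cell genes Rhox13, Ccnb3 and Tex16, and Dmrtc1a, which went from 229 and 289.9 to 766 and 748 (1.52 ± 0.13, adjusted p = 7.42e-07).

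**Figure D4:**
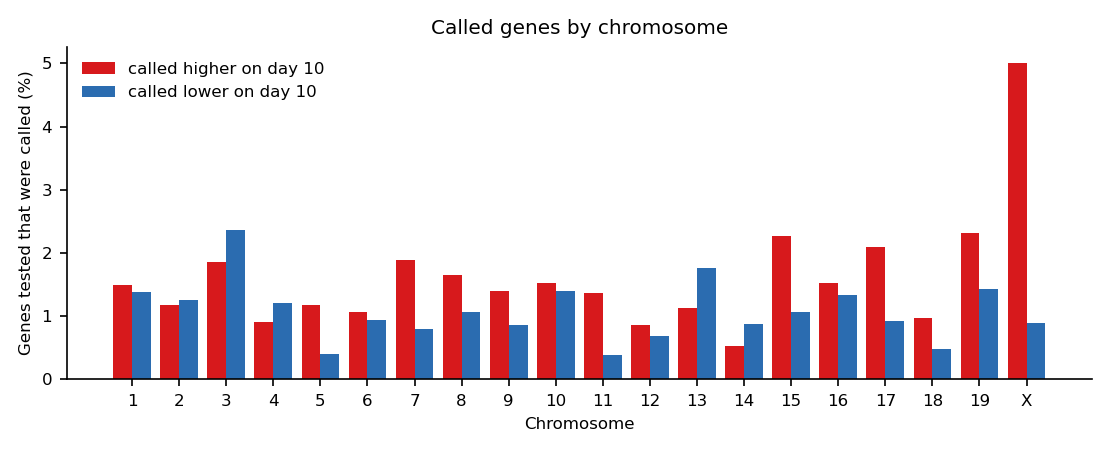
Percent of tested genes on each chromosome that were higher and lower on day 10 than on day 8. The X chromosome has the largest share higher, at 5.01%, against at most 2.32% on any autosome.

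The steps before and after this one, day 8 against day 6 and day 14 against day 10, share arrays with it, so only their values are set beside it. For the cohesin, axis and synaptonemal complex list the median differences of the 3 steps were 0.46, 0.73 and 0.50 in the order of days. For the recombination list they were 0.18, 0.31 and -0.02, and for the pachytene list 0.16, 0.099 and 2.45. For the imprinted growth genes they were -0.12, -0.71 and -0.53, and for the matrix genes -0.02, -0.44 and -0.21. Over all genes tested they were 0.02, 0.0069 and -0.04.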

How the data were processed

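The authors deposited linear intensities for the probe sets, and all 20 arrays share a 2% trimmed mean of 125.001. The program behind these values is not given in the text available here. The second array of day 18 is named day 0 in another of its labels and was kept under its title. Of 45101 probe sets, 64 controls were left out, 34945 carry 1 gene symbol, 932 several and 9160 were not listed. For each of 18193 genes, the probe set of highest mean among those with 1 symbol stood for the gene. The 16429 genes above the 40th percentile of an array on at least 2 arrays were tested. The constant added before taking log2, 7.83, is the pooled 20th percentile of the deposited values.

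The lmFit and trended eBayes functions of limma 3.58.1 (R 4.3.3) were applied to all 20 arrays with day as a factor of 10 levels, leaving 10 residual and 8.88 prior degrees of freedom. Tests were two-sided and adjusted by Benjamini-Hochberg. The fit was also tested on simulated data, with changes of 4 sizes between day 8 and day 10 put into 50 genes each. Of changes of 0.75, 1, 1.5 and 2 on the log2 scale, 40%, 52%, 60% and 84% were called, with 6 false calls. A gene that did not pass is therefore not shown to be unchanged. Named genes are the 12 that rose most and the 12 that fell most of those called with all day 10 arrays on one side of all day 8 arrays (clone and predicted symbols left out), up to 3 called members of each of 30 lists or else the member with the largest difference, benchmark genes, and other members of the germ cell and retinoic acid lists. The comparison, the lists and the benchmark genes were chosen with earlier results of these data known. The alternatives tried were other normalizations, constants, filters, probe set rules, fits and thresholds, and leaving out each array. Precision is limited by having 2 arrays a day. Plots used matplotlib 3.10.9 (Python 3.11.15).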

Additional observations from a re-analysis of the deposited data

How the results depend on the processing

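Against 254 genes higher and 172 lower, quantile normalization gave 231 and 138, a common median 257 and 159, and the mean of the probe sets of a gene 212 and 130. Counts moved by over 1.5 times with array weights (396 and 312), with a 2-fold threshold (105 and 60), with no fold threshold (411 and 293), for lower genes at an adjusted p under 0.01 (79) and for lower genes in a fit of days 0 to 14 alone (327). The fit of days 0 to 14 gave 320 higher genes, and a fit of days 8 and 10 alone gave 291 higher and 256 lower. Higher genes made up 59.6% of the calls in the main fit, 49.5% for days 0 to 14 and 53.2% for days 8 and 10 alone. Leaving out single arrays gave 151 to 243 higher and 57 to 170 lower. Of 94 named genes that were called, 47 kept their call under every setting that kept the call rule, and 47 lost it under at least 1. Of these 94, Bub1 alone changed sign under any setting run, at -0.047 for the mean of its probe sets. Arrays of equal replicate number shared little deviation across genes, which cannot show whether they were paired by animal or batch. Their deviations correlated at 0.0504 between days 8 and 10 and at -0.0249 to 0.0561 over 45 pairs of days. With the replicate block the counts were 255 and 170, and no call of a named gene changed. Where intensities lie near 7.83, the size of a difference depends on that constant.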

Other observations

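These genes were picked after their values were seen, and are given as values. The class I histocompatibility gene H2-K1 went from 348 and 336 on day 8 to 928 and 943 on day 10 (1.43 ± 0.09, adjusted p = 5.86e-09), by a probe set that may also bind related class I genes. H2-D1, of the same family, rose by 0.76 ± 0.16, with adjusted p-values of 0.0523, 0.0729 and 0.182 without the first and second arrays of day 8 and the first of day 10, and differed by only 0.25 as the mean of its probe sets (adjusted p = 0.737). The light chain gene B2m differed by -0.09 ± 0.14.

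Among mesenchymal genes outside the lists, the cadherin gene Cdh11 went from 534 and 485 to 207 and 219.7 (-1.22 ± 0.12, adjusted p = 4.78e-06), and the versican gene Vcan from 159 and 156 to 63.5 and 58.6 (-1.26 ± 0.21, adjusted p = 0.00095), but by -0.52 as the mean of its probe sets (adjusted p = 0.327). The hedgehog pathway gene Hhip fell by 0.93 ± 0.21. Its call was lost for the mean of its probe sets and whichever single array was left out, with differences then of -0.89 to -0.96. The receptor gene Ptch1 differed by -0.43 ± 0.12 (adjusted p = 0.0544). The days did not overlap in any of these 4 genes.

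Of the 426 genes called, 214 had other probe sets tested, 366 in all. Of these, 320 differed in the same direction and 46 in the opposite one, and 50 were called the same way and 1 the opposite way. Among 6251 probe sets with no listed gene, 18 were higher and 25 lower, and among 800 listed with several genes, 7 and 5.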
